A study of Mus musculus with 10 samples.

Results

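The MYC and MAX network was followed through 10 genes in mouse splenic CD8+ T cells: Myc, Mycn and Mycl, their shared partner Max, the MAX-binding repressors Mxd1, Mxd3, Mxd4, Mxi1 and Mnt, and the MAX-like partner Mlx. The genes were taken by name from a table of 57010 genes, all 10 were found, and 8 of them passed the filter on low counts that left 18966 genes for testing. Mycn and Mycl did not pass it. RNA was sequenced in bulk from 5 mice of unstated age, giving 10 libraries. The 3 conditional knockout mice (cKO, Dusp2fl/fl-E8I-cre+/-) carry 2 floxed Dusp2 alleles and E8I-cre, a Cre driven by a Cd8a enhancer, which deletes Dusp2 in CD8+ T cells. The 2 control mice (Dusp2fl/fl-E8I-cre-/-) carry the same floxed alleles without Cre, so loss of Dusp2 and presence of Cre cannot be told apart. From each mouse, cells were kept for 24 h with anti-CD3/CD28 beads (activated) or in the same medium without beads (rested). Control mouse 1 and cKO mice 1 and 2 were male, and control mouse 2 and cKO mouse 3 were female.

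MYC is a transcription factor that binds DNA only as a dimer with MAX, mostly at the E-box CACGTG, and raises transcription of genes for growth, ribosome assembly and metabolism. The MXD proteins, MXI1 and MNT compete for MAX and for the same sites, where they recruit SIN3 and histone deacetylases and lower transcription. MLX takes the place of MAX in dimers with the glucose sensors MondoA (Mlxip) and ChREBP (Mlxipl) and with some MXD proteins and MNT. In T cells, MYC is induced by antigen receptor signals and is needed for the growth and metabolic change that precede division.

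The E-box was looked for in the members' own promoters, because network proteins bind that motif. In the RefSeq promoter table (GRCm38.p6, 250 bases before to 50 after each start), 9 of the 10 members had an entry, all but Myc. CACGTG, which reads the same on both strands, was present in 4 of the 9: Max, Mxd4, Mnt and Mlx. It was present in 8.09% of the 27025 genes with an entry and in 11.4% of the 10837 tested genes with an entry. Mycn, Mycl, Mxd1, Mxd3 and Mxi1 had no such 6 letters in this window. The 4 stretches are given 5′ to 3′ on the gene's strand, with the E-box in capitals, at chr12:76962219-76962291 (minus strand) for Max, chr5:34187884-34187960 (minus) for Mxd4, chr11:74830761-74830846 (plus) for Mnt and chr11:101087210-101087295 (plus) for Mlx.
Max: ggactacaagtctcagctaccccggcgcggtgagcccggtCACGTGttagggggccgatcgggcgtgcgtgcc
Mxd4: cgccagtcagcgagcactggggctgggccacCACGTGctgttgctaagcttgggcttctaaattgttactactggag
Mnt: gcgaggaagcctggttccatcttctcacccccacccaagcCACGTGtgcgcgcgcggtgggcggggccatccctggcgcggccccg
Mlx: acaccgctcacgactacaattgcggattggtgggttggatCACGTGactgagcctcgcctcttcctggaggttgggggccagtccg
The motif began 3 bases before the annotated start in Max, 40 in Mlx, 123 in Mnt and 219 in Mxd4. These are matches of letters, and binding was not measured here. With activation in control cells, described below, Mxd4 and Mnt, with the motif, fell, and so did Mxi1 and Mxd1, without it. Max and Mlx, with the motif, showed no change that passed the test. A link between motif and change was not tested.

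Library totals ran from 51203786 to 65135435 counts, so 3 counts were worth 0.0461 to 0.0586 CPM (counts per 1000000 library counts). Levels are given in CPM on library sizes scaled by the TMM method of edgeR. Dusp2, the targeted gene, was at 92.6 ± 6.8 CPM (SD, n = 2) in control and 25.98 ± 1.9 CPM (n = 3) in cKO cells at rest. After activation it was at 295 ± 4.9 CPM (n = 2) in control and 51.8 ± 5.0 CPM (n = 3) in cKO cells, with no overlap between genotypes in either state. For cKO mouse 3, the title of each library contradicts its genotype or treatment field and its library name, and groups here follow the fields and names. Dusp2 was at 28.1 and 52.6 CPM in those libraries, within or next to the range of the other cKO libraries of the same state. The 7 CD8 T cell markers, Cd8a, Cd8b1, Cd3d, Cd3e, Cd3g, Thy1 and Trac, summed to 3282 to 3578 CPM in rested and 2749 to 2905 CPM in activated libraries. Marker sums for B cells reached at most 6.32 CPM, for myeloid cells 2.45, for natural killer cells 1.83, and for dendritic and for erythroid cells and platelets 0.174 each. The 3 CD4 and regulatory T cell markers moved with activation, from 2.77 to 9.44 CPM at rest to 12.6 to 33.3 CPM, most of it Zbtb7b, while Cd4 itself stayed between 0.160 and 1.22 CPM. Their part in the results was not tested. In bulk RNA, fewer cells of a type and less RNA per cell cannot be told apart.

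Myc was the member that changed most with activation. In control cells, Myc rose and Mxd4, Mxi1, Mnt and Mxd1 fell, while Max and Mlx showed no change that passed the test. In cKO cells the same 5 genes were called in the same directions, and Mxd3 and Mlx also rose. Thus 5 of 8 tested members changed in control and 7 of 8 in cKO cells (adjusted p below 0.05, edgeR's quasi-likelihood test, Benjamini-Hochberg adjustment over all genes tested). Change with activation was common in this table: 56.1% of all tested genes were called in control (28.5% higher, 27.6% lower) and 63.4% in cKO cells (31.5% higher, 31.9% lower), so the members' counts lie close to the background. As a scale for the sizes that follow, the median absolute log2 fold change over all genes was 0.56 in control and 0.58 in cKO cells.

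Myc (ENSMUSG00000022346, mm39 chr15:61857240-61862223, plus strand) was at 38.3 and 34.8 CPM in the rested libraries of control mice 1 and 2, and at 42.2, 37.9 and 32.9 CPM in those of cKO mice 1, 2 and 3. After activation it was at 308 and 398 CPM in control and at 406, 322 and 396 CPM in cKO cells. The lowest activated library lay far above the highest rested library, and within each state the genotypes overlapped. Activated against rested, the log2 fold change was 3.27 (SE 0.18, 95% interval 2.86 to 3.68, adjusted p = 7.66e-07, edgeR) in control and 3.31 (SE 0.15, 2.98 to 3.65, adjusted p = 1.05e-07) in cKO cells, which is 9.64-fold and 9.94-fold. Of the 18966 tested genes, 490 had a higher log2 fold change in control and 472 in cKO cells. Per gene length, Myc went from above 76.9% of tested genes at rest to above 98.3% after activation. Without cKO mouse 3, the cKO log2 fold change was 3.18.

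Activated libraries fell into a lower and a higher level of Myc that cut across genotype. Control mouse 1 and cKO mouse 2 had 308 and 322 CPM, and the other 3 activated libraries had 396 to 406 CPM. At rest these same mice, at 38.3 and 37.9 CPM, lay in the middle of the range. Pim2, a kinase that phosphorylates and stabilises MYC protein, was at 158 and 157 CPM in those 2 activated libraries and at 195 to 204 CPM in the other 3. The same division, with control mouse 1 and cKO mouse 2 both below the other 3, was seen in 18.7% of all tested genes, in 8 of the 18 genes for MYC protein turnover and in no other tested member. With 5 activated libraries no correlation was computed.

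Mycn and Mycl, the relatives of Myc that prevail in embryonic, neural and lung tissue, were near the limit of detection. Mycn had 4 counts over all rested and 15 over all activated libraries, with 0 to 5 counts in any library. Mycl had 8 counts over the rested and 34 over the activated libraries, with 0 to 12 in any library. These levels are too low for a comparison, and neither gene was tested.

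Max (ENSMUSG00000059436, mm39 chr12:76984043-77008975, minus strand), the obligate partner, was the steadiest member. Its level was 122 and 120.0 CPM in rested control libraries, 119, 123 and 114 CPM in rested cKO, 119 and 120.0 CPM in activated control, and 117, 120.2 and 112 CPM in activated cKO cells. All libraries lay between 112 and 123 CPM. Activated control libraries lay just below rested control libraries, and each other pair of groups overlapped. The log2 fold change with activation was -0.02 in control (95% interval -0.14 to 0.11, adjusted p = 0.839, edgeR) and -0.03 in cKO cells (-0.13 to 0.07, adjusted p = 0.629). Both intervals thus lie between -0.14 and 0.11. They refer to Max as a share of scaled library counts, and RNA per cell was not measured. The sign of the change depends on the scale: it was positive on log2(FPKM + 0.5), at 0.05 in control and 0.04 in cKO cells. Gm47218, a gene model on the same strand, overlaps Max by 1319 bases and had 4.07% as many counts.

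**Figure D1:**
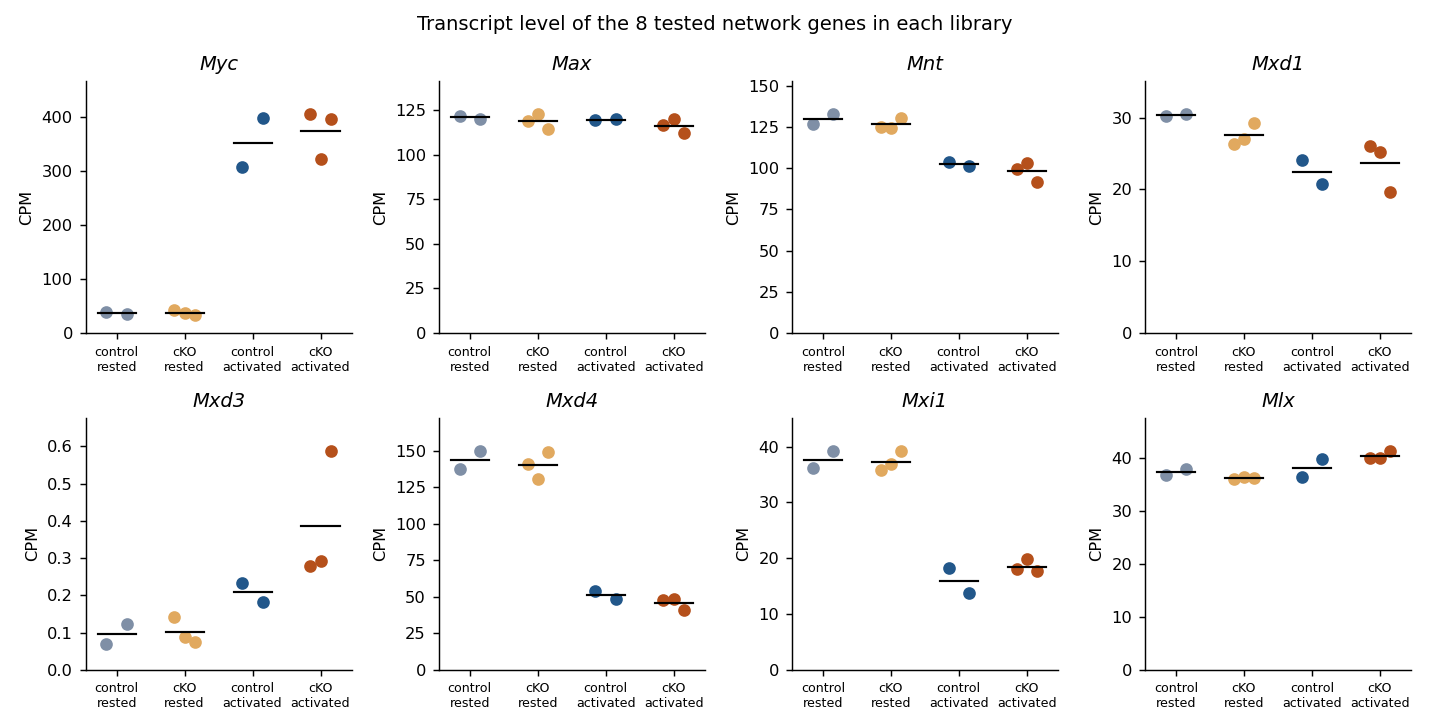
CPM of the 8 tested members in each library (points, 2 control and 3 cKO mice in each state; bars are group means). Myc lies between 32.9 and 42.2 CPM at rest and between 308 and 406 CPM after activation, Max stays between 112 and 123 CPM, and Mxd4, Mxi1 and Mnt are lower in each activated library than in any rested library.

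Among the repressors, Mxd4 (ENSMUSG00000037235, mm39 chr5:34331227-34345064, minus strand) fell most. MXD4 is a MAX partner linked to resting and differentiated cells. At rest it was at 138 and 150.1 CPM in control and at 141, 131 and 149 CPM in cKO cells. After activation it was at 54.2 and 48.6 CPM in control and 47.9, 48.3 and 41.0 CPM in cKO cells. Every activated library lay below every rested library. The genotypes overlapped at rest, and after activation the 3 cKO libraries lay below both control libraries. The level was 2.81-fold lower in control (log2 fold change -1.49, SE 0.09, adjusted p = 5.18e-08, edgeR) and 3.07-fold lower in cKO cells (-1.62, SE 0.08, adjusted p = 2.16e-09).

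Mxi1 (ENSMUSG00000025025, mm39 chr19:53298949-53364241, plus strand), also called Mxd2, fell next. It was at 36.1 and 39.2 CPM in rested control libraries, 35.7, 36.9 and 39.3 CPM in rested cKO, 18.2 and 13.7 CPM in activated control, and 18.0, 19.8 and 17.6 CPM in activated cKO cells. The states did not overlap, and the lowest value was that of activated control mouse 2. The level was 2.37-fold lower in control (log2 fold change -1.24, SE 0.12, adjusted p = 1.26e-06, edgeR) and 2.02-fold lower in cKO cells (-1.01, SE 0.09, adjusted p = 6.92e-07).

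Mnt (ENSMUSG00000000282, mm39 chr11:74721746-74736551, plus strand), the broadly expressed MAX-binding repressor, fell by less. It was at 127 and 133 CPM in rested control libraries, 125, 124 and 131 CPM in rested cKO, 104 and 102 CPM in activated control, and 99.4, 103 and 91.5 CPM in activated cKO cells. The states did not overlap here either. The log2 fold change was -0.34 in control (SE 0.07, adjusted p = 0.00082, edgeR) and -0.37 in cKO cells (SE 0.06, adjusted p = 5.4e-05). Without control mouse 2, the control call was lost (adjusted p = 0.063).

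Mxd1 (ENSMUSG00000001156, mm39 chr6:86624024-86646143, minus strand), the founding member of the MXD family, had lower levels after activation by amounts that varied between mice. It was at 30.2 and 30.5 CPM in rested control libraries, 26.4, 27.1 and 29.3 CPM in rested cKO, 24.0 and 20.7 CPM in activated control, and 26.1, 25.2 and 19.7 CPM in activated cKO cells. States did not overlap, but the activated libraries of cKO mice 1 and 2 were only just below the lowest rested library. The log2 fold change was -0.44 in control (SE 0.11, adjusted p = 0.00444, edgeR) and -0.23 in cKO cells (SE 0.09, adjusted p = 0.045). The cKO call is marginal, with adjusted p from 0.000648 to 0.564 over the alternatives run: with the mouse as a block it was 0.0744, and without cKO mouse 3 it was 0.564 with a log2 fold change of -0.06. The control call was lost without control mouse 2 (adjusted p = 0.169), and limma on log2(FPKM + 0.5) gave an adjusted p of 0.05001.

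Mxd3 (ENSMUSG00000021485, mm39 chr13:55472981-55477636, minus strand), an MXD protein known from cells in S phase, was barely detected. It had 4 and 7 counts in rested control, 7, 5 and 4 in rested cKO, 14 and 12 in activated control, and 17, 17 and 35 in activated cKO cells. Activated libraries were all above rested ones, and the highest count was that of cKO mouse 3. The log2 fold change was 1.12 in control (SE 0.67, adjusted p = 0.175, edgeR) and 1.89 in cKO cells (SE 0.53, adjusted p = 0.00675). The cKO call was lost without cKO mouse 3 (log2 fold change 1.33, adjusted p = 0.103). Prelid1 overlaps Mxd3 by 105 bases on the opposite strand and had 75267 counts in all libraries against 122 for Mxd3, so the Mxd3 counts are uncertain.

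Mlx (ENSMUSG00000017801, mm39 chr11:100978103-100983033, plus strand) moved little. It was at 36.7 and 37.8 CPM in rested control libraries, 36.0, 36.5 and 36.2 CPM in rested cKO, 36.4 and 39.8 CPM in activated control, and 39.9, 40.01 and 41.4 CPM in activated cKO cells. The states overlapped in control and not in cKO cells. The log2 fold change was 0.03 in control (95% interval -0.11 to 0.17, adjusted p = 0.711, edgeR) and 0.16 in cKO cells (0.04 to 0.27, adjusted p = 0.02). The cKO call was lost without cKO mouse 1 (adjusted p = 0.0773) and without cKO mouse 3 (adjusted p = 0.0972). Psmc3ip overlaps Mlx by 385 bases on the opposite strand and had 12.6% as many counts.

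**Figure D2:**
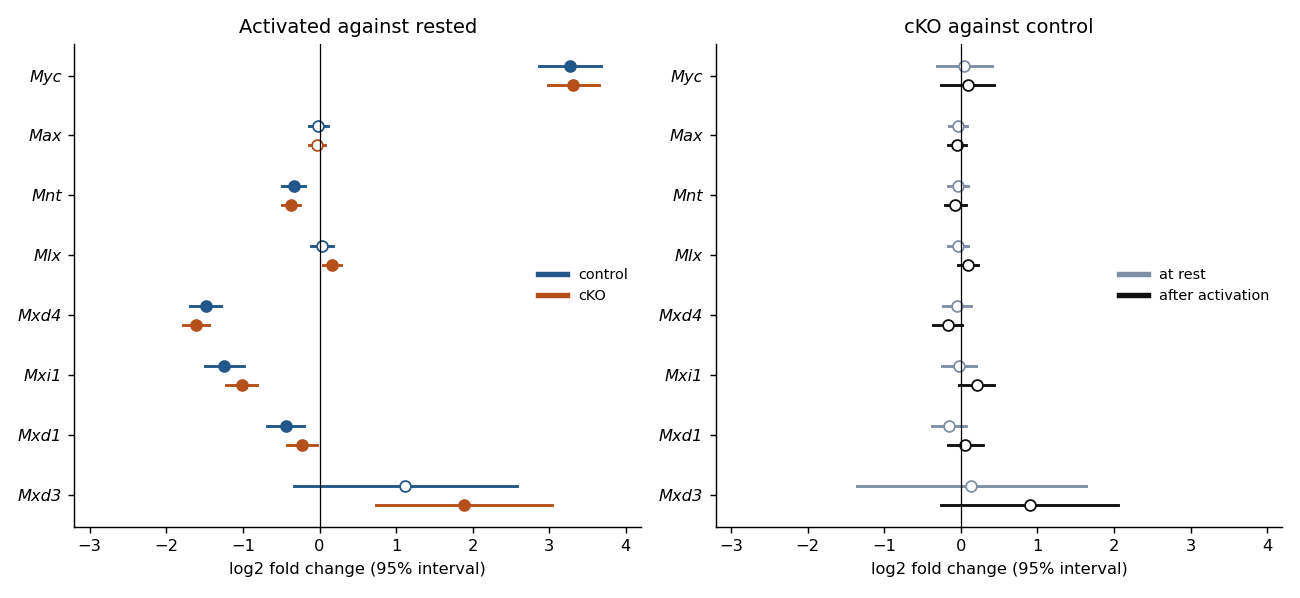
Log2 fold changes of the 8 tested members with 95% intervals, for activation in each genotype (left) and for cKO against control in each state (right); filled points passed an adjusted p of 0.05. Myc stands at 3.27 and 3.31 and Mxd4 at -1.49 and -1.62 on the left, and every interval on the right includes 0.

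Each mouse gave a rested and an activated library, so the change could be read within animals. Myc was 8.05-fold and 11.4-fold higher in control mice 1 and 2 and 9.61-fold, 8.50-fold and 12.0-fold higher in cKO mice 1, 2 and 3. Mxd4 after activation was 0.393 and 0.324 of its rested level in the control mice and 0.340, 0.370 and 0.275 in the cKO mice. Myc and Mxd3 were higher and Max, Mxd1, Mxd4, Mxi1 and Mnt were lower after activation in 5 of 5 mice, and Mlx was higher in 4 of 5. For Max the ratios were 0.978 to 1.000, and its direction turned on the FPKM scale. A like direction in 5 of 5 mice was seen in 69.6% of all tested genes, against these 7 of 8 members. The libraries of the 2 states did not overlap in 6 of 8 members, all but Max and Mlx, and in 57.2% of all tested genes.

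In 5 members the shift was wider in both female mice, control 2 and cKO 3, than in the 3 males. Their activated to rested ratios were 11.4 and 12.0 for Myc against 8.05 to 9.61 in the 3 males, and 0.275 to 0.324 for Mxd4 against 0.340 to 0.393. The ratios were 0.350 to 0.449 against 0.505 to 0.537 for Mxi1, 0.672 to 0.680 against 0.795 to 0.989 for Mxd1, and 0.700 to 0.764 against 0.795 to 0.831 for Mnt, with no overlap between the sexes in these genes. With Max, whose ratios were all near 1, 6 of 8 members had ratios that did not overlap between the sexes, as did 32.4% of all tested genes. The difference was tested after these values had been seen, in an edgeR fit with a sex term for each state. For no member did the female minus male difference in log2 fold change pass adjustment, while 0.891% of all tested genes did. At an unadjusted p below 0.05, 5 members passed (these same 5), as did 16.3% of all genes. It was 0.45 for Myc (95% interval 0.07 to 0.82, adjusted p = 0.232), -0.33 for Mxd4 (-0.49 to -0.17, adjusted p = 0.0502), -0.39 for Mxd1 (-0.59 to -0.18, adjusted p = 0.066), -0.35 for Mxi1 (adjusted p = 0.116) and -0.17 for Mnt (adjusted p = 0.249). Among activated libraries alone, Mxd1 and Mxd4 were lower in females, by log2 differences of -0.31 (adjusted p = 0.0102, edgeR) and -0.20 (adjusted p = 0.0252), against 12.3% of all genes called between the sexes. At rest no member was called, against 2.25% of all genes. The mouse names begin with 1 number in all males and another in both females, so sex and whatever the number marks cannot be told apart.

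Levels of different members were compared on FPKM (fragments scaled to gene length and library size). At rest the order was Max (32.4 ± 0.8 FPKM, SD, n = 5 libraries), Mnt (27.01 ± 0.9), Mlx (17.9 ± 0.4), Mxd4 (16.3 ± 1.0), Myc (13.4 ± 1.2), Mxi1 (5.36 ± 0.26), Mxd1 (3.96 ± 0.27) and Mxd3 (0.0407 ± 0.0131). The ranges of Mxd4 and Myc overlapped, and those of the other neighbours down to Mxd3 did not. After activation Myc was the highest, at 138 ± 17 FPKM, followed by Max (33.4 ± 1.0), Mnt (22.1 ± 1.2), Mlx (20.2 ± 0.9), Mxd4 (5.79 ± 0.58), Mxd1 (3.35 ± 0.42), Mxi1 (2.62 ± 0.35) and Mxd3 (0.136 ± 0.068). Here Mnt and Mlx overlapped, as did Mxd1 and Mxi1. Mxd4 had dropped from above 80.9% to above 58.4% of tested genes. Mycl and Mycn stood last in both states and overlapped.

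**Figure D3:**
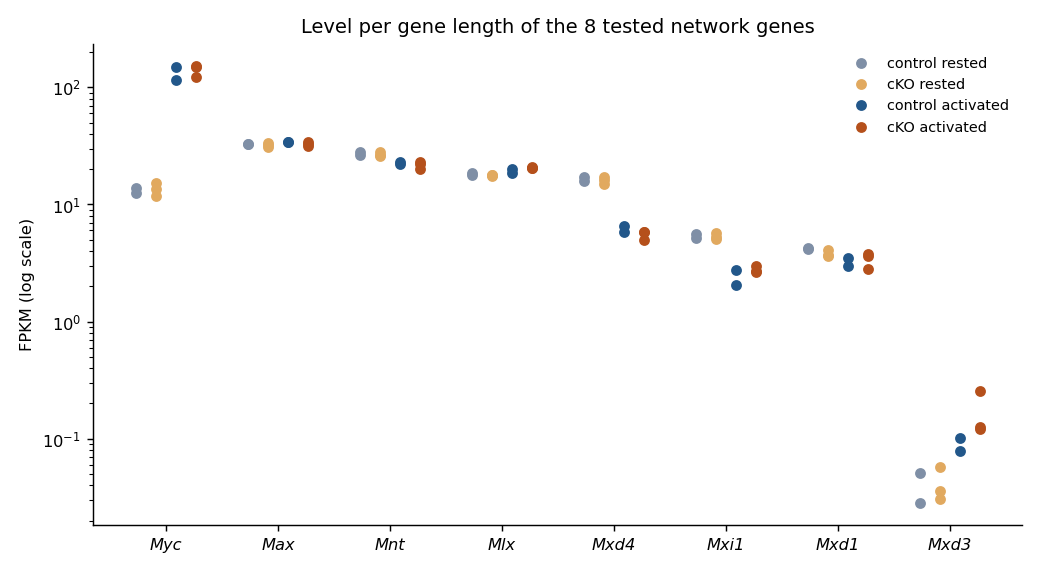
FPKM of the 8 tested members in each library, on a log axis, coloured by group. Myc lies between 11.9 and 15.1 FPKM at rest, under Max, and between 116 and 153 FPKM after activation, above every other member, while Max stays between 31.2 and 34.3 FPKM.

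The balance of transcripts between MYC and its competitors turned over in every mouse. In rested libraries the ratio of Myc FPKM to Max FPKM was 0.416 and 0.384 in control mice 1 and 2. It was 0.471, 0.409 and 0.382 in cKO mice 1, 2 and 3. In activated libraries the ratio was 3.42 and 4.39 in control and 4.61, 3.55 and 4.68 in cKO cells. The change lay in Myc, since Max itself moved by under 0.1 on the log2 scale on either scaling. Over the 5 repressors that bind MAX (Mxd1, Mxd3, Mxd4, Mxi1 and Mnt), the summed FPKM was 50.3 to 55.3 at rest and 30.8 to 36.0 after activation. Myc over that sum was 0.217 to 0.295 at rest and 3.24 to 4.82 after activation. Summed FPKM of Myc and the 5 repressors over Max was 1.92 to 2.14 at rest and 4.48 to 5.65 after activation. Mnt made up 50.7% to 52.1% of the repressors' sum at rest and 64.0% to 67.1% after activation. In each of these measures the states did not overlap and the genotypes overlapped after activation. They describe RNA, and their size depends on the gene length used for each gene in FPKM. Protein was not measured.

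**Figure D4:**
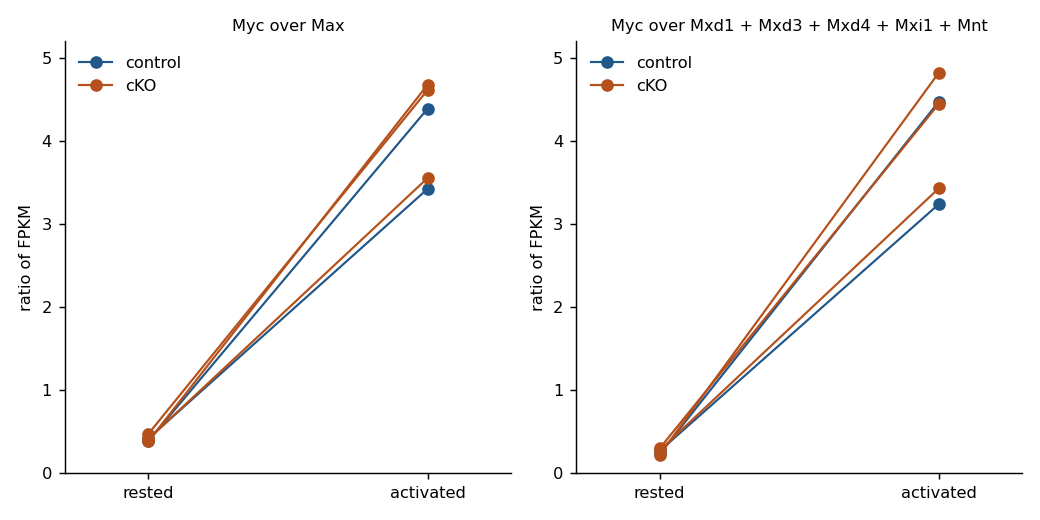
Ratio of Myc FPKM to Max FPKM (left) and to the summed FPKM of Mxd1, Mxd3, Mxd4, Mxi1 and Mnt (right) in each mouse, rested and activated; lines join the libraries of a mouse. Both ratios are under 0.5 in each rested library and above 3 in each activated library, with control and cKO mice interleaved.

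No tested member was called between cKO and control cells. Dusp2 RNA was lower but not absent in cKO cells, at 0.28 of control at rest and 0.18 after activation (edgeR estimates). The source of the remaining RNA was not tested. DUSP2 is a nuclear phosphatase that acts on MAP kinases. The comparison asks whether the network differs in cKO cells before or after stimulation. At rest, 0 of 8 tested members were called by edgeR, against 0.0422% of all genes (0.0264% higher, 0.0158% lower), and 0 members had an unadjusted p below 0.05, as 783 genes did. After activation 0 of 8 were called, again against 0.0422% of all genes (0.0264% higher and 0.0158% lower), and 0 had an unadjusted p below 0.05, as 1142 genes did. DESeq2 and limma also called 0 members in both states. Leaving out cKO mouse 3 gave 0 in both. The libraries of the genotypes did not overlap in 2 of 8 members at rest, with Mxd1 and Mlx lower in cKO cells, against 17.7% of all tested genes. After activation they did not overlap in 3 of 8, with Mxd4 lower and Mxd3 and Mlx higher in cKO cells, against 17.1% of all tested genes.

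The intervals give the differences between genotypes that are compatible with these data. For Myc, cKO against control was 0.05 on the log2 scale at rest (95% interval -0.31 to 0.41) and 0.09 after activation (-0.25 to 0.43). For Max it was -0.04 (-0.15 to 0.08) and -0.05 (-0.16 to 0.07). After activation Mxd4 was at -0.17 (-0.36 to 0.02, unadjusted p = 0.0686, adjusted p = 0.836) and Mxi1 at 0.21 (-0.03 to 0.44, unadjusted p = 0.0763, adjusted p = 0.838). The other differences were between -0.16, for Mxd1 at rest, and 0.14, for Mxd3 at rest, except for Mxd3 after activation, at 0.90 (-0.25 to 2.06). For Mxd3 at rest the interval was also wide, at -1.36 to 1.64.

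The interaction asks whether activation moved a member differently in the genotypes. It called 0 members and 0% of all genes (0 of 18966) by edgeR, with 519 genes and 0 members at an unadjusted p below 0.05. DESeq2 called 3 genes, limma 0, and each called 0 members. The difference in log2 fold change, cKO minus control, was 0.04 for Myc (95% interval -0.45 to 0.53), -0.13 for Mxd4 (-0.39 to 0.13), 0.23 for Mxi1 (-0.09 to 0.55), 0.21 for Mxd1 (-0.10 to 0.53) and 0.13 for Mlx (-0.06 to 0.31). Thus the calls for Mxd3 and Mlx in cKO cells alone are not shown to differ between genotypes.

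Genes around the network were read in 9 lists, which were chosen with earlier results of these data known. Of 2 other Myc-related genes, Bmyc was measured at 9.13 ± 0.90 CPM at rest and 10.8 ± 1.4 CPM after activation (SD, n = 5) and was not called (log2 fold change 0.24 in control and in cKO cells), and Mycs had no counts. Of 4 other partners, Mga, Mlxip and Zbtb17 were tested and Mlxipl was not. Zbtb17, which encodes the MYC partner MIZ1, rose by 0.25 in control (adjusted p = 0.0046, edgeR) and in cKO cells. Mlxip, which encodes MondoA, fell in both genotypes (-0.21, adjusted p = 0.0123, and -0.31). Mga, a MAX-binding repressor, stood at 0.01 in control and fell in cKO cells (-0.16, adjusted p = 0.0242). In control, 0 of the partners were called without control mouse 1, and without control mouse 2 none was called lower.

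The 2 genes best known as targets of MLX with MondoA moved in opposite directions. Txnip, which limits glucose uptake, fell from 857 ± 67 CPM at rest to 361 ± 68 CPM after activation (n = 5, log2 fold change -1.25 in control, adjusted p = 1.14e-05, edgeR, and -1.27 in cKO cells). Arrdc4, of the same arrestin family, rose from 4.08 ± 1.10 to 16.2 ± 6.8 CPM (1.96 in control, adjusted p = 5.43e-07, and 1.90 in cKO cells).

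Most genes in the lists of MYC targets rose. Because the lists were chosen with earlier results known, their counts are descriptions and no test of MYC targets as a class. Of all tested genes, 28.5% were called higher in control and 31.5% in cKO cells. Of 20 targets for the nucleolus and ribosome assembly, 20 rose in both genotypes, with a median log2 fold change of 1.88 in control and 1.93 in cKO cells, against -0.0023 and -0.0079 over all tested genes. Ncl, the nucleolar protein nucleolin, was at 1.57 in control, Fbl, the rRNA methylase fibrillarin, at 1.78, and Nop56, a partner of fibrillarin, at 1.57. Rrp12 was the highest at 2.98 and Npm1 the lowest at 1.08. Their summed level was 2030 to 2236 CPM at rest and 5882 and 7369 CPM in activated control, and 6940, 6041 and 8031 CPM in activated cKO cells. The 2 lowest activated sums were those of control mouse 1 and cKO mouse 2, the same libraries in which Myc was lowest. Taken singly, 18.7% of all tested genes showed that division. This is not a background for a sum over many genes, for which no share was computed. In the promoter table, 4 of 16 of these genes with an entry held CACGTG (25.0%), against 11.4% of tested genes with an entry.

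Of 23 targets for metabolism and growth, 21 rose in each genotype and 2 did not pass the test in control, with medians of 1.68 and 1.75. Again, 28.5% of all tested genes were called higher in control and 31.5% in cKO cells. Odc1, the first enzyme of polyamine synthesis, went from 56.4 ± 4.4 to 391 ± 62 CPM (log2 fold change 2.74 in control). Cad, which starts pyrimidine synthesis, rose by 1.97, Ldha, lactate dehydrogenase, by 1.43, and Cdk4, a G1 cyclin-dependent kinase, by 0.91. Hk2, hexokinase 2, was the highest at 5.85 (1.01 ± 0.35 to 50.2 ± 10.3 CPM). Their summed level was again lowest, among activated libraries, in control mouse 1 (5680 CPM) and cKO mouse 2 (5839 CPM), against 6667 to 7183 CPM in the other 3. CACGTG was in the promoters of 7 of 18 genes with an entry (38.9%). Of tested genes with an entry 11.4% held it, and of those called higher in control 13.3%. In the lists other than these targets, some of them very small, the share ran from 0% to 50%.

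Genes known to be repressed by MYC did not move as a group. Of 7, 4 rose and 3 fell in each genotype, with medians of 0.72 in control and 0.85 in cKO cells. Over all tested genes, 28.5% were called higher and 27.6% lower in control, and 31.5% and 31.9% in cKO cells. Cdkn1b, the cell cycle inhibitor p27, fell from 488 ± 24 to 159 ± 29 CPM (log2 fold change -1.57 in control, adjusted p = 7.28e-07, edgeR). Cdkn1a, the inhibitor p21, rose from 2.08 ± 0.59 to 261 ± 26 CPM (7.34, adjusted p = 3.5e-14). Cdkn2b rose by 2.35 and Gadd45a fell (-0.92).

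The cofactors were mixed. As background for these counts, 28.5% of all tested genes were called higher and 27.6% lower in control, and 31.5% and 31.9% in cKO cells. Of 13 MYC coactivators, 8 rose and 1 fell in control (median 0.29) and 9 rose and 2 fell in cKO cells (0.26). Ruvbl1, an ATPase of chromatin remodelling complexes, was the highest (14.96 ± 1.3 to 53.5 ± 9.5 CPM, 1.74 in control), Kat2a and Kat5, the acetyltransferases GCN5 and TIP60, rose by 0.69 and 0.29, and Trrap, the scaffold that MYC binds to reach them, fell (-0.57). Ep400, an ATPase of the TIP60 complex, stood at -0.07 in control and fell in cKO cells (-0.23, adjusted p = 0.00121, edgeR). Of 12 corepressors of the MXD proteins and MNT, 5 rose and 5 fell in each genotype (medians -0.06 and -0.07). In control cells Sin3a, the SIN3 scaffold, fell (-0.17), Sin3b stood at -0.10 and Hdac1 at -0.01, and Hdac2 rose by 0.39. Of the corepressors in control, Sap30 rose most (1.24) and Suds3 fell most (-0.43). Without control mouse 1 or 2, 6 corepressors were called in control.

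Of 18 genes for MYC protein turnover, 9 rose and 6 fell in each genotype, with medians of 0.13 and 0.20. The shares over all tested genes were 28.5% higher and 27.6% lower in control, and 31.5% and 31.9% in cKO cells. Pim2 rose from 42.3 ± 4.7 to 183 ± 24 CPM (2.09 in control, adjusted p = 1.02e-08, edgeR). Usp28, a deubiquitinase that protects MYC, fell from 390 ± 22 to 128 ± 21 CPM (-1.56, adjusted p = 9.37e-06). Fbxw7, the ubiquitin ligase subunit that marks MYC for degradation, rose slightly (0.18), Gsk3b, the kinase that primes MYC for it, fell (-0.49), and Skp2 and Huwe1 stood at 0.08 and 0.02 in control. In cKO cells Huwe1 fell (-0.15, adjusted p = 0.0216, edgeR). Without control mouse 2, 9 were called in control. Between genotypes and for the interaction, 0 genes were called in any of the 9 lists. For the nucleolar targets, the median of cKO against control was 0.07 at rest and 0.09 after activation, with 19 of 20 genes positive in each. For metabolism and growth targets it was 0.05 and 0.12, with 18 and 21 of 23 positive. Over all tested genes it was 0.0038 and 0.0026. In the other lists with more than 2 tested genes, medians ran from -0.10 to 0.03. These leanings were not tested.

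**Figure D5:**
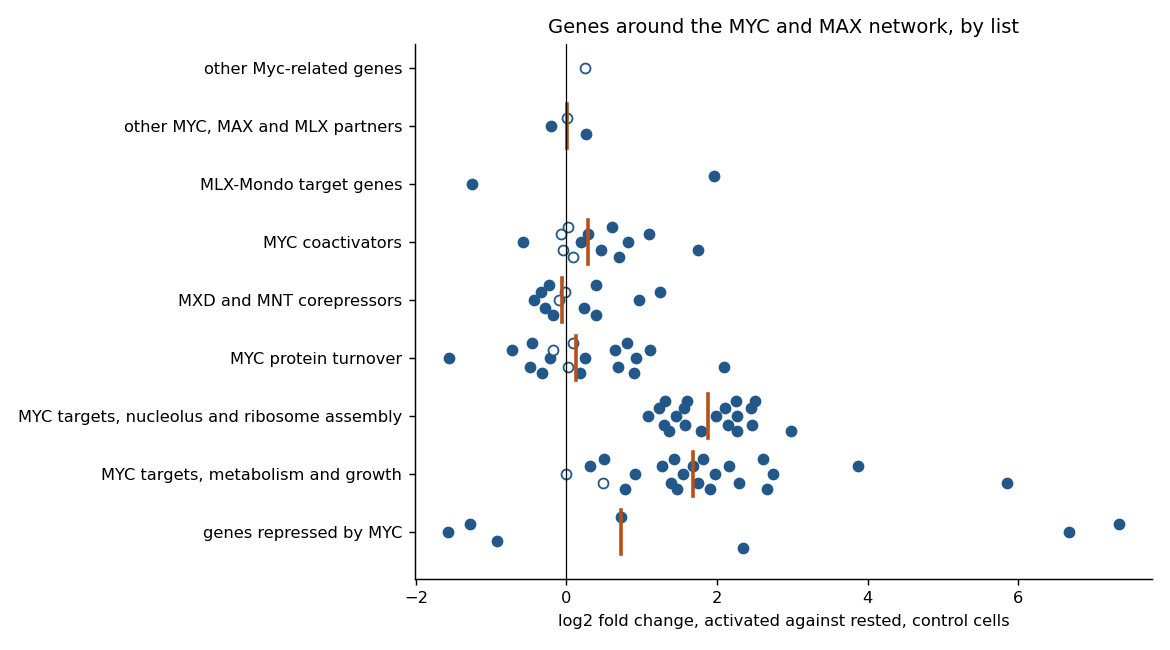
Log2 fold change with activation in control cells for the tested genes of each list; each point is a gene, filled where it passed an adjusted p of 0.05, and bars are medians of lists with more than 2 tested genes. The nucleolar targets all lie between 1.08 and 2.98, whereas corepressors and turnover genes lie on both sides of 0.

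The genes whose profile over the 10 libraries was most like that of Myc were Mrm3 (Pearson r of log2 CPM 0.9995), Sept11 (0.9991), Pwp2 (0.999), Pspc1 (0.9989) and Rilpl2 (0.9989), among 10406 genes whose mean was 5 CPM or more. For Mxd4, the member that fell most, they were Prdm10 (0.9992), Srgap2 (0.999), Ifit2 (0.9987), Prr12 (0.9986) and Kctd18 (0.9984). Such values are common when libraries form 2 states: 23.9% of these genes had r above 0.95 with Myc and 24.8% with Mxd4. They are descriptions over libraries that share mice and states.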

How the data were processed

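Libraries were stranded mRNA libraries, per the labels' protocols. Subread, FastQC, MultiQC and build mm39 are named in the submitters' processing notes. The sources used here name no annotation release and do not say if counting used strand, so overlapping genes are uncertain. The deposited counts are unnormalized whole numbers. The deposited FPKM equal the count divided by gene length plus 1 base and by the column sum (largest relative deviation 9.4e-07), and were used to compare levels between genes.

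Counts were tested in R 4.3.3 with edgeR 4.0.16 (TMM, filterByExpr by group, robust quasi-likelihood F test, 4 group means plus sex, all 10 libraries, 5 residual degrees of freedom, biological coefficient of variation 9.14%), with Benjamini-Hochberg adjustment over all genes tested and calls below 0.05. The code was tested on simulated data with 200 changed genes. Alternatives used limma 3.58.1 on log2(FPKM + 0.5), DESeq2 1.42.0, other filters and covariates, and each mouse left out. Libraries of a mouse come from the same animal, and their deviations from group means correlated (r 0.15 to 0.33 in cKO mice, 0.36 in control). With 2 control mice the deviations mirror each other, so both give the same r. The mouse was therefore used as a block for activation in an alternative fit. Mice are separate animals. The printed intervals come from edgeR's quasi-likelihood fits, so they include spread between libraries as well as counting error. Floors are counts scaled to library totals and take no account of that spread.

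The members and the 9 lists were chosen with earlier results of these data known. Named genes are all members and, of each list, the first 4 tested in written order plus those with the highest and the lowest log2 fold change with activation in control. The 5 genes most like Myc and most like the called member that fell most are also named. Sept11 was named from its identifier. A gene that this rule names is not reported here.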

Additional observations from a re-analysis of the deposited data

How the results depend on the processing

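Myc, Mxd4 and Mxi1 were called in the same direction in both genotypes under every alternative run, and 0 members were called between genotypes or for the interaction under any. Members called with activation numbered 3 to 5 in control and 4 to 6 in cKO cells when a mouse was left out. The lowest were 3 without control mouse 2 and 4 without cKO mouse 3. With the mouse as a replicate block, 5 members and 10352 genes were called in control, 6 members (without Mxd1) and 11840 genes in cKO cells, and 0 for the interaction. No paired analysis was possible for the genotype comparisons because mouse numbers name different animals. Mxd1 in cKO cells passed in 3 alternatives only: without a filter, without cKO mouse 1 and with a sex term per state, a fit chosen after the values were seen.

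Over all genes, 6981 to 10646 were called in control when a mouse was left out. At rest, cKO against control called 8 genes, and 204 without a filter, 5 with at least 5 CPM in 2 libraries, 29 by DESeq2, 5 by limma and 7 to 25 with a mouse left out. After activation it called 8, and 211 without a filter, 5 with the strict filter, 21 by DESeq2, 4 by limma, 5 from the activated groups alone, 31 with a sex term per state and 6 to 49 with a mouse left out. The interaction called 39 without a filter, 3 by DESeq2 and 0 to 3 with a mouse left out.

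Signs that turned belonged to values not called. Max with activation was 0.011 in control with the strict filter, and 0.050 in control and 0.037 in cKO cells by limma. Mxi1 at rest between genotypes was 0.0058 with a sex term per state and 0.0035 from rested groups alone. With a mouse left out, Mlx with activation in control ran from -0.0023 to 0.072. At rest between genotypes, Myc ran from -0.044 to 0.19, Mxd3 from -0.22 to 0.36, Mxd4 from -0.14 to 0.031, Mxi1 from -0.12 to 0.035, Mnt from -0.11 to 0.0058 and Mlx from -0.065 to 0.0037, and after activation Myc ran from -0.12 to 0.31. For the interaction, Myc ran from -0.17 to 0.31, Max from -0.014 to 0.0088, Mxd4 from -0.26 to 0.037, Mxi1 from -0.0195 to 0.53 and Mnt from -0.079 to 0.044. Alternatives that leave out a mouse test fewer samples; the cause of the other moves was not tested. Depth limits Mycn, Mycl and Mxd3.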
